A study of Mus musculus with 16 samples.

Results

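The 5 enzymes that break tyrosine down to fumarate and acetoacetate are encoded by Tat, Hpd, Hgd, Gstz1 and Fah, and their transcripts were followed in mouse liver. Every probe whose accession matched one of these 5 symbols was taken, which gave 1 probe per gene, or 5 of the 29690 probes tested and 5 of the 22024 genes or transcripts they represent. The probes are A_51_P228574 for Tat, A_51_P288341 for Hpd, A_52_P40293 for Hgd, A_55_P1988708 for Gstz1 and A_52_P302496 for Fah. The livers came from female B6C3F1 mice, bought at 5 to 6 weeks of age and given at least 7 days to acclimatize. Dosing was by oral gavage for 21 days, with furan at 8 mg/kg body weight in corn oil or with corn oil alone, and livers were collected 4 h following the last gavage. Tissue was kept in formalin for either 18 h or 3 weeks and embedded in paraffin, so the 4 groups are control and furan at each time in formalin, with 4 arrays each. The RNA of the 18 h livers came from 1 section of 10 µm and that of the 3-week livers from 2 such sections, so time in formalin and section number cannot be told apart. In the 3-week controls, arrays 2.1 and 2.2 share the sample number 2 and were averaged as 1 liver, which leaves 15 samples and 3 controls at 3 weeks. The numbers 2, 4, 6 and 41 to 44 occur at both fixation times. Samples that share a number may come from 1 animal, so the 15 samples may not be independent animals. Comparisons across the fixation times took them as unpaired. All animals share strain, sex, gavage and formalin fixation, each sample is a bulk section of liver, and no unfixed tissue was analysed here.

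Tyrosine breakdown is a pathway of the hepatocyte cytosol. Tat, tyrosine aminotransferase, moves the amino group of tyrosine to alpha-ketoglutarate and is a classic target of glucocorticoids and fasting. Hpd, hydroxyphenylpyruvate dioxygenase, then makes homogentisate and is the enzyme blocked by the drug nitisinone. Hgd, homogentisate dioxygenase, opens the aromatic ring and is the enzyme lost in alkaptonuria. Gstz1, a glutathione transferase of the zeta class, turns maleylacetoacetate into fumarylacetoacetate and also dechlorinates dichloroacetate. Fah, fumarylacetoacetate hydrolase, makes the final cut, and its loss causes hereditary tyrosinemia of the hepatorenal kind. Furan is a volatile compound of heated food that is toxic to rodent liver after oxidation by cytochrome P450.

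The sequences just upstream of the 5 genes are shown because 4 of the 5 transcripts were lower together in furan livers fixed for 18 h. They are the 250 bases before the annotated start in RefSeq on GRCm38.p6, 5′ to 3′ on the strand of the gene, with capitals marking matches to the motifs named after them. The windows are chr8:109990186-109990435 on the plus strand for Tat, chr5:123182724-123182973 on the minus strand for Hpd, and chr16:37579903-37580152 on the plus strand for Hgd. The windows of the later enzymes are chr12:87146915-87147164 on the plus strand for Gstz1, the first of its 2 annotated starts, and chr7:84605943-84606192 on the minus strand for Fah.
Tat: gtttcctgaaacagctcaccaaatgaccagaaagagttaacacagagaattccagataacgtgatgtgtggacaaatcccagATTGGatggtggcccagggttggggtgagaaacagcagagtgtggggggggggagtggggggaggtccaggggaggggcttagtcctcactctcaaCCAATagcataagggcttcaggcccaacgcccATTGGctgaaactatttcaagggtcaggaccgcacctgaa
Hpd: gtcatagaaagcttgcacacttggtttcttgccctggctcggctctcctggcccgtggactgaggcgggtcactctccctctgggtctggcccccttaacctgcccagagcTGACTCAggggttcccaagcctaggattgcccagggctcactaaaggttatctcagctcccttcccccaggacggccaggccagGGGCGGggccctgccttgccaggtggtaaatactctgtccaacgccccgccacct
Hgd: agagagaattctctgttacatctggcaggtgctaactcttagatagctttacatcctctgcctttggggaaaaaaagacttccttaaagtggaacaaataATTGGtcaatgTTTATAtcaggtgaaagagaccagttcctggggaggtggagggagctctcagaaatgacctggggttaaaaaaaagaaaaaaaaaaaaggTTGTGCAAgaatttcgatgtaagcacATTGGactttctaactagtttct
Gstz1: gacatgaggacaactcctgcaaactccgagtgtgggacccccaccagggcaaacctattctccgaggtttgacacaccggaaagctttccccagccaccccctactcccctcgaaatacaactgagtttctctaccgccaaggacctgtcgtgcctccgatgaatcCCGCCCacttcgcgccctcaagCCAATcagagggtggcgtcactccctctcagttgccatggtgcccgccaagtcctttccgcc
Fah: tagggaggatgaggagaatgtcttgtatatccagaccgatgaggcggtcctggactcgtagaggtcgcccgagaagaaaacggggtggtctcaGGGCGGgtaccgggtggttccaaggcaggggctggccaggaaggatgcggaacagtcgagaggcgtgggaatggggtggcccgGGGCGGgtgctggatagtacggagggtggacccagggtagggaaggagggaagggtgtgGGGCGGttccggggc

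A set of motifs was searched on both strands of 32851 such windows. The Tat window holds 3 CCAAT boxes (CCAAT), which begin 168, 72 and 40 bases before the start, and CCAAT occurs in 33.8% of all windows. Hgd holds 2 CCAAT boxes, a match to the TATA box (TATAAA, 12.4% of windows) and a C/EBP site (TTGCNNAA, 9.56% of windows). The TATA match of Hgd lies on the opposite strand, as TTTATA, 139 bases before the start. Gstz1 holds 1 CCAAT box and 1 GC box (GGGCGG, 32.7% of windows). Hpd holds 1 GC box and 1 AP-1 site (TGANTCA, 6.75% of windows), 55 and 139 bases before the start, and Fah holds 3 GC boxes. No motif was held by all 4 of Tat, Hpd, Hgd and Fah. The window of Hgd is the only one of the 5 below the median GC content of all windows, at 38.8% against 52.4%, while the others lie between 53.6% for Tat and 64.4% for Fah. The cores of the glucocorticoid receptor site (TGTTCT, 16.1% of windows) and the HNF1 site (GTTAAT, 6.43%), the antioxidant response element core (TGACNNNGC, 10.2%) and the forkhead site (TGTTTAC, 3.17%) had no match in these windows. The letters of the AP-1 site and of the antioxidant response element core can overlap. These matches describe letters in a window and were not tested for use.

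All 16 arrays carried the liver sample in Cy5 and a reference pooled from all samples in Cy3, so each value is the log2 ratio of liver over that pool. After loess, 0 is the typical ratio of probes of the same brightness on that array, not the level of the pool itself. RNA integrity numbers per the labels ran from 1.3 to 2.4. Probes well above background made up 47.3% ± 3.18 (SD, n = 4) in controls and 53.7% ± 1.48 (SD, n = 4) of all probes in furan livers at 18 h, and the groups did not overlap (exact two-sided permutation test, p = 0.0286, the smallest p this design allows). At 3 weeks the share was 34.3% ± 1.77 (SD, n = 3) in controls and 38.1% ± 2.39 (SD, n = 4) in furan livers (exact two-sided permutation test, p = 0.0571, where 0.0286 is the smallest possible). All 5 probes were well above background on 16 of 16 arrays and saturated on 0. Their signal over local background was highest for Hpd, from 246 to 794, and lowest for Fah, from 6.01 to 101. That of Fah ran from 46.6 to 101 at 18 h and only from 6.01 to 11.2 at 3 weeks. Tat ran from 87.9 to 212, Gstz1 from 81.4 to 335 and Hgd from 15.5 to 118. Of 8 listed hepatocyte markers 7 were tested, and each of these, Alb, Ttr, Apoa1, Apob, Fgb, Serpinc1 and Apoh, was above background on 16 arrays.

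In livers fixed for 18 h, transcripts for 4 of the 5 steps of the tyrosine pathway were lower with furan. Hpd was 3.06-fold lower, Fah 2.70-fold, Hgd 2.09-fold and Tat 1.92-fold lower in furan livers than in controls, while Gstz1 was close to its control level. In this comparison 47.2% of all tested probes passed the threshold, an adjusted p under 0.05 by limma with Benjamini-Hochberg adjustment over all tested probes, with 26.8% lower and 20.4% higher. The share was larger among bright probes. Of the 14375 probes above background on every array, as the 5 members were, 9125 passed when tested alone, 5479 lower and 3646 higher. For the same 4 genes every furan liver lay below every control, a pattern shown by 21.3% of tested probes. In bulk tissue, fewer hepatocytes and less of a transcript per hepatocyte cannot be told apart.

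The first enzyme, Tat, had log2 ratios of -0.14, -0.03, 0.31 and 0.41 in the 18 h controls 2, 3, 4 and 6, and of -0.95, -0.61, -0.89 and -0.77 in furan livers 41, 42, 43 and 44. The controls spread more than most probes did, with an SD of 0.26 where the median SD of all probes was 0.14, but they did not overlap the furan livers. The log2 difference was -0.94 (SE 0.13, 95% confidence interval -1.24 to -0.65, adjusted p = 0.000309). Only 1.69% of tested probes had a lower difference.

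Hpd, the dioxygenase that makes homogentisate, had the largest log2 difference of the 5 with loess; with Agilent's log ratios, with quantile normalization and with the share of probes above background as a covariate, that of Fah was larger. Its log2 ratios were 0.99, 0.97, 1.13 and 1.32 in controls and -0.45, -0.43, -0.79 and -0.38 in furan livers. Every control was thus above 0 and every furan liver below it on this loess scale. The log2 difference of -1.62 (SE 0.12, 95% confidence interval -1.87 to -1.36, adjusted p = 1.1e-05) was the 11th lowest of the 29690 probes.

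Hgd, which opens the ring, had log2 ratios of 0.36, 0.22, 0.53 and 0.35 in controls and -0.46, -0.65, -0.83 and -0.86 in furan livers. The groups again lay on opposite sides of 0. The log2 difference was -1.06 (SE 0.10, 95% confidence interval -1.29 to -0.84, adjusted p = 3.33e-05), and 0.946% of tested probes had a lower one.

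Gstz1, the isomerase between Hgd and Fah, was the member that did not pass the test. Its log2 ratios were -0.10, 0.03, 0.04 and 0.14 in controls and 0.15, 0.18, 0.08 and 0.13 in furan livers, and the groups overlapped. The log2 difference was 0.11 (SE 0.08, 95% confidence interval -0.08 to 0.29, adjusted p = 0.311). This interval does not include a fall of the size seen for any of the other 4 members.

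Fah, the last enzyme, had log2 ratios of 0.94, 0.82, 0.93 and 1.23 in controls and -0.57, -0.50, -0.39 and -0.32 in furan livers. As for Hpd, the groups lay on opposite sides of 0. The log2 difference was -1.43 (SE 0.09, 95% confidence interval -1.63 to -1.24, adjusted p = 6.39e-06), the 31st lowest of all tested probes.

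**Figure D1:**
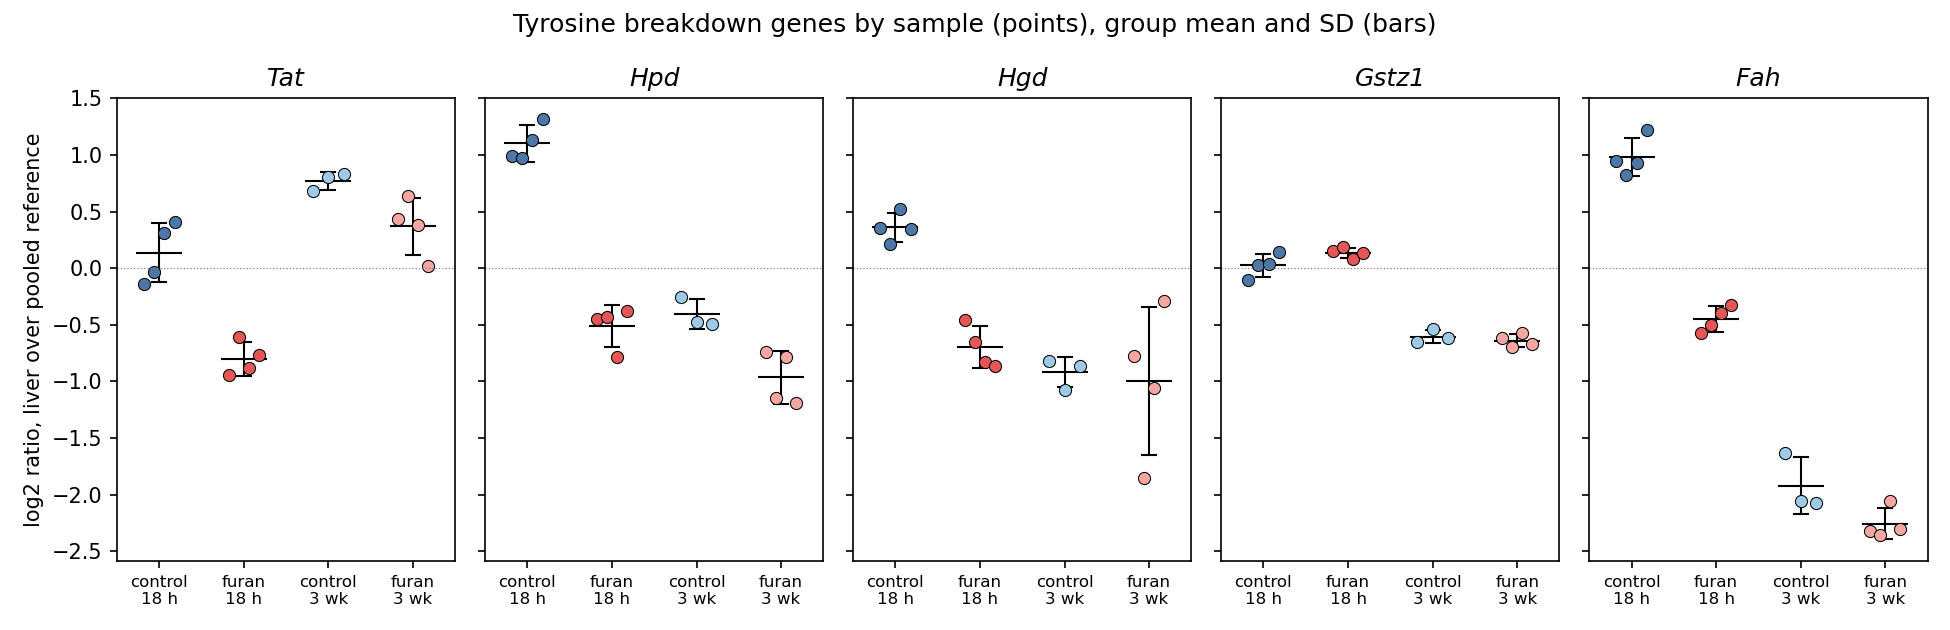
Log2 ratio of liver over pooled reference (vertical axis) for each of the 15 samples in the 4 groups, with 1 panel per gene; points are samples and bars are the group mean and SD. At 18 h the furan points lie below all control points for Tat, Hpd, Hgd and Fah and overlap them for Gstz1, and at 3 weeks they lie below them for Tat and Hpd.

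Both slides held 2 control and 2 furan arrays of the 18 h livers, and the 4 lower members passed the test within each slide. Hpd differed by -1.50 on slide 1 and -1.73 on slide 2, Fah by -1.42 and -1.44, Hgd by -0.93 and -1.20, and Tat by -0.92 and -0.96 on the log2 scale. More probes were above background in the furan livers at 18 h, without overlap, so this share and furan cannot be told apart. With the share of such probes as a covariate Fah kept its call (-1.38, adjusted p = 0.0453) while Tat (-0.93, adjusted p = 0.126), Hpd (-1.16, adjusted p = 0.0517) and Hgd (-0.74, adjusted p = 0.0952) did not. Of the other scalings, 3 left these sizes much as they were: Hpd was at -1.49, Fah at -1.53, Hgd at -1.18 and Tat at -0.94 with Agilent's log ratios, at -1.48, -1.34, -0.996 and -0.88 in the authors' deposited value table, and at -1.22, -1.35, -1.04 and -0.92 with quantile normalization. Median centring shrank them. With each array centred on its median in place of loess, the median of all tested probes moved from -0.05 to 0.10, Hpd was at -1.10, Fah at -0.92, Hgd at -0.54 and Tat at -0.41, all still called lower. Gstz1 was then at 0.66 and called higher (adjusted p = 0.000123), and 78.6% of all calls were higher against 43.2% with loess.

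The channels of the arrays were also read separately. Before loess, the liver channel of Hpd was lower in furan than in control livers at 18 h by a log2 difference of -0.65, that of Fah by -0.64, that of Hgd by -0.35 and that of Tat by -0.22. Over all tested probes the median of this difference was 0.32, and Gstz1 was at 0.77. The reference channel, which holds the same pool on every array, differed between the same groups by 0.33 for Hpd, 0.16 for Fah, 0.08 for Hgd, 0.08 for Tat and -0.01 for Gstz1. These differences have no test of their own. Among the 4 lower members, the groups stayed apart in the liver channel only for Hpd. Its log2 values ran from 15.6 to 16.1 in controls and from 14.8 to 15.4 in furan livers. The groups of Gstz1 also stayed apart, with furan livers higher, from 13.4 to 14.3 in controls and 14.4 to 14.8 in furan livers. The groups overlapped for Fah (12.3 to 13.1 and 11.9 to 12.4), Hgd (12.5 to 13.4 and 12.3 to 12.9) and Tat (12.9 to 13.7 and 12.8 to 13.4). The difference of Tat was smaller than the SD of its groups, 0.38 in controls and 0.28 in furan livers.

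**Figure D2:**
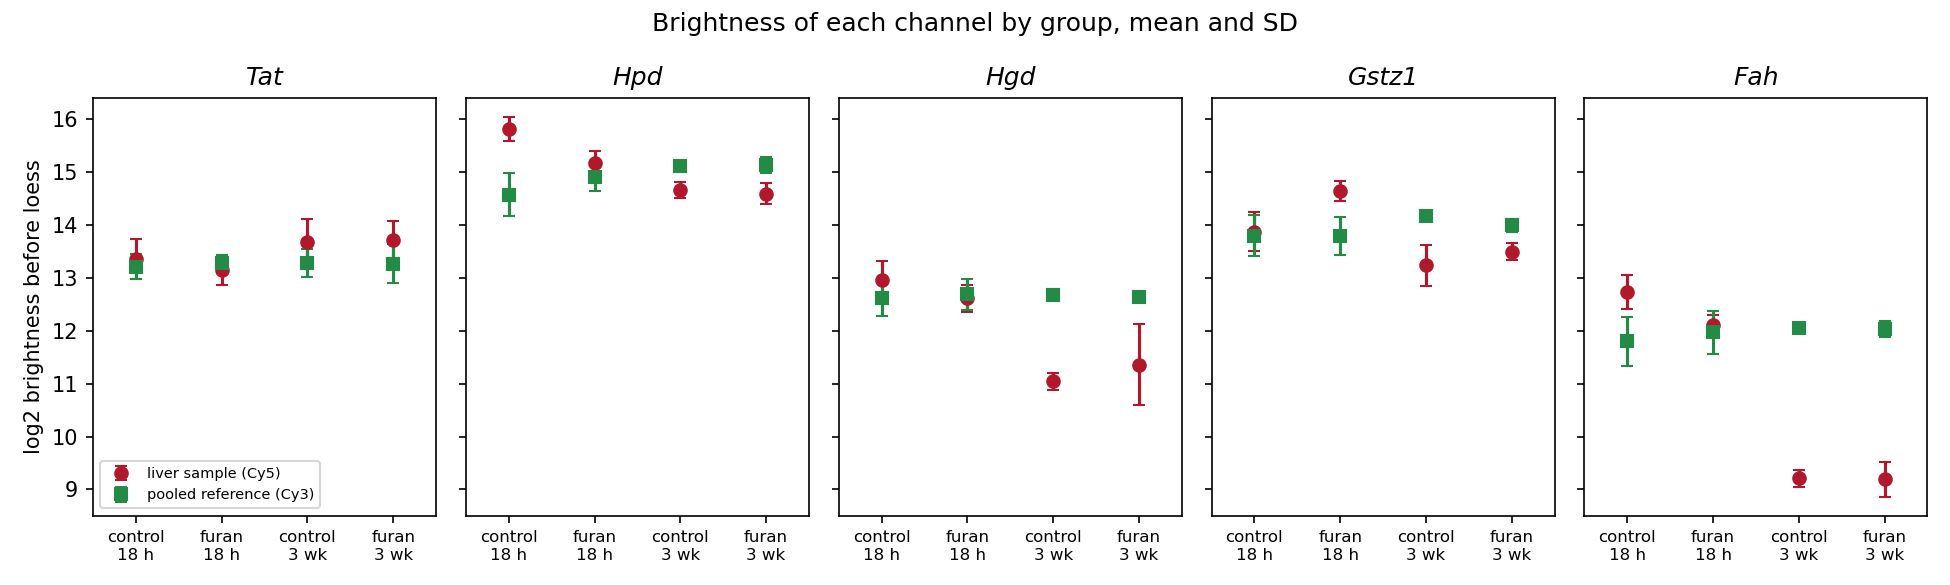
Mean and SD of log2 brightness before loess (vertical axis) of the liver channel (Cy5, circles) and the pooled reference channel (Cy3, squares) in the 4 groups, with 1 panel per gene. The mean liver channel of Hpd, Hgd and Fah is above the reference in 18 h controls and below it in both 3-week groups, and the mean reference of Hpd itself runs from 14.6 in 18 h controls to 15.1 in 3-week furan livers.

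In livers kept in formalin for 3 weeks, 0 of the 5 members passed the threshold by limma, where 0.118% of all tested probes did, 0.0303% lower (9 probes) and 0.0876% higher (26 probes). At an unadjusted p under 0.05 there were 2 members, Tat and Hpd, and 4102 of all 29690 probes. For these 2 genes every furan liver lay below every control, as it did for 5.85% of tested probes. Before loess their groups overlapped in the liver channel at 3 weeks. Furan minus control was there 0.04 for Tat, -0.07 for Hpd, 0.32 for Hgd, 0.26 for Gstz1 and -0.02 for Fah. These differences have no test of their own, and the median over all probes was taken only at 18 h. The design had 3 controls at this time, and the median SD of all probes was 0.19 in both groups, against 0.14 in the controls and 0.15 in the furan livers at 18 h.

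Tat had log2 ratios of 0.68, 0.81 and 0.83 in the 3-week controls 2, 4 and 6, and of 0.44, 0.63, 0.38 and 0.02 in furan livers 41 to 44. The log2 difference was -0.40 (SE 0.15, 95% confidence interval -0.74 to -0.07, adjusted p = 0.279). Hpd had log2 ratios of -0.26, -0.48 and -0.49 in controls and -0.74, -1.14, -0.79 and -1.19 in furan livers. All 7 values were below 0, and the log2 difference was -0.56 (SE 0.16, 95% confidence interval -0.92 to -0.20, adjusted p = 0.195). Hpd passed the threshold when the spread was estimated from all 15 samples (adjusted p = 0.0391) and without background correction (-0.66, adjusted p = 0.0450). With each array centred on its median the log2 difference of Hpd was -0.12. In Agilent's log ratios its controls were at -0.72 and -0.81 (arrays 2.1 and 2.2), -0.61 and -0.76. Its furan livers were at -0.77, -1.08, -0.83 and -1.23 there, and furan liver 41 lay above array 2.2.

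Fah had log2 ratios of -1.63, -2.06 and -2.07 in controls and -2.32, -2.36, -2.05 and -2.31 in furan livers. Furan liver 43 overlapped the controls and the other furan livers did not, and the log2 difference was -0.34 (SE 0.16, adjusted p = 0.377). Gstz1 had log2 ratios of -0.66, -0.54 and -0.62 in controls and -0.62, -0.70, -0.57 and -0.67 in furan livers, with a log2 difference of -0.04 (SE 0.13, adjusted p = 0.935). It was the tightest of the 5, with an SD of 0.06 in each group.

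Hgd was the most scattered member in the 3-week furan livers, though not in the controls. Its log2 ratios were -0.82, -1.07 and -0.86 in the 3-week controls, and in furan livers they ran from -1.86 in liver 42 through -1.06 in 43 and -0.77 in 41 to -0.29 in 44. The furan livers lay on both sides of the controls, and their SD of 0.66 was larger than that of 99.1% of tested probes. The log2 difference was -0.08 (SE 0.26, 95% confidence interval -0.66 to 0.51, adjusted p = 0.932). Without furan liver 42 it was 0.18, and without furan liver 43 it was 0.06. With each array centred on its median, the 3-week log2 differences were 0.02 for Tat, -0.12 for Hpd, 0.33 for Hgd, 0.40 for Gstz1 and -0.03 for Fah, and none of them passed the threshold.

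Whether the furan effect differed between the fixation times was tested with an interaction contrast over all 15 samples, in which 12.8% of tested probes passed, 7.82% with a higher effect at 3 weeks and 4.93% with a lower one. Of the 5 members 2 passed, both with a smaller fall at 3 weeks. The furan effect on Fah was higher at 3 weeks by 1.09 on the log2 scale (SE 0.17, adjusted p = 0.00131), and that on Hpd by 1.06 (SE 0.20, adjusted p = 0.00333). Of all 29690 probes, Fah had the 160th highest contrast and Hpd the 201st. For Hgd the difference of the effects was 0.98 (SE 0.33, adjusted p = 0.0593) and for Tat 0.54 (SE 0.21, adjusted p = 0.0975). Hgd passed the threshold without furan liver 42 of the 3-week group (1.28, adjusted p = 0.00376), and Tat without furan liver 44 (0.65, adjusted p = 0.0422). Gstz1 was at -0.14 (SE 0.13, 95% confidence interval -0.42 to 0.13, adjusted p = 0.496).

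**Figure D3:**
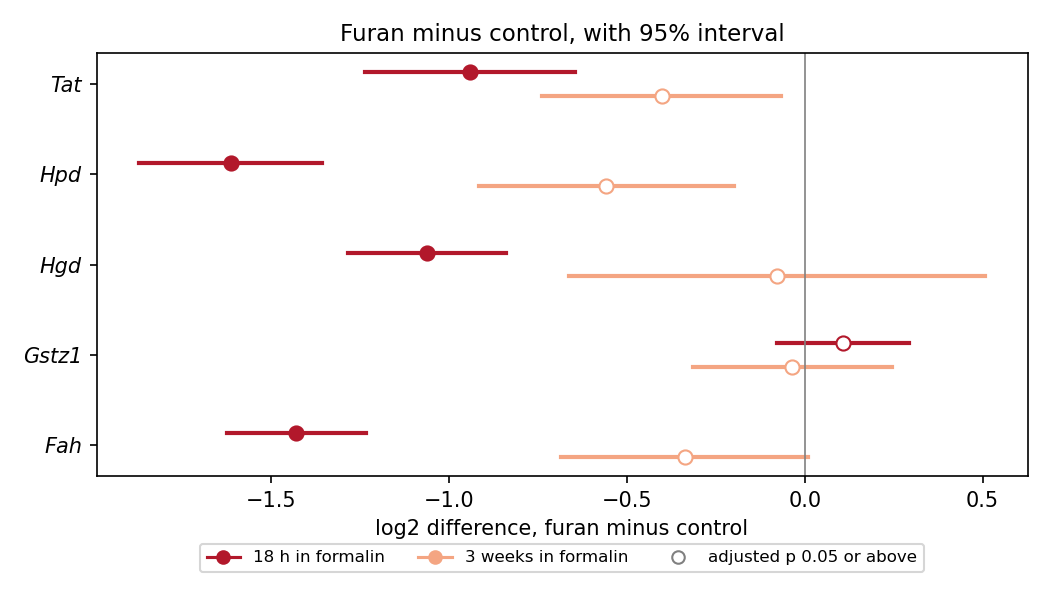
Log2 difference of furan minus control (horizontal axis) with its 95% confidence interval for each gene, in dark red at 18 h and in light orange at 3 weeks in formalin; filled points passed an adjusted p of 0.05. The 18 h points of Hpd, Fah, Hgd and Tat lie between -1.62 and -0.94 and that of Gstz1 at 0.11, while the 3-week points lie between -0.56 and -0.04.

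The transcripts also differed by time in formalin, 4 of them downwards and Tat upwards. In control livers all 5 members differed between 3 weeks and 18 h, 4 lower and 1 higher, where 59.3% of tested probes passed, 30.8% lower and 28.5% higher. Fah was 7.48-fold lower at 3 weeks (log2 difference -2.90, SE 0.12, adjusted p = 1.91e-11), the 61st lowest of all tested probes. Hpd was 2.85-fold lower (-1.51, SE 0.14), Hgd 2.43-fold lower (-1.28, SE 0.24) and Gstz1 1.55-fold lower (-0.63, SE 0.09). Tat was instead 1.55-fold higher (0.63, SE 0.15, adjusted p = 0.00179). In furan livers 4 of 5 passed, where 67.1% of tested probes did, 32% lower and 35.1% higher. Fah was at -1.81 (SE 0.11), Gstz1 at -0.78 (SE 0.09), Hpd at -0.45 (SE 0.13, adjusted p = 0.00653) and Tat at 1.17 (SE 0.14) on the log2 scale, while Hgd was at -0.29 (SE 0.22, adjusted p = 0.253). The furan groups of Hpd overlapped, and without furan liver 44 of the 3-week group Hgd passed the threshold (-0.53, adjusted p = 0.0280). With the share of probes above background as a covariate, the rise of Tat was no longer called in control livers (0.54, adjusted p = 0.388) or in furan livers (1.05, adjusted p = 0.143). In control livers Hgd (-1.45, adjusted p = 0.132) and Gstz1 (-0.57, adjusted p = 0.134) also lost their calls, and Fah (-2.75, adjusted p = 8.21e-05) and Hpd (-1.69, adjusted p = 0.00644) kept theirs. In furan livers Hpd (-0.66, adjusted p = 0.331) and Gstz1 (-0.70, adjusted p = 0.121) lost theirs and Fah (-1.62, adjusted p = 0.0119) kept its call. The share did not overlap between the fixation times, so it and time in formalin cannot be told apart.

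**Figure D4:**
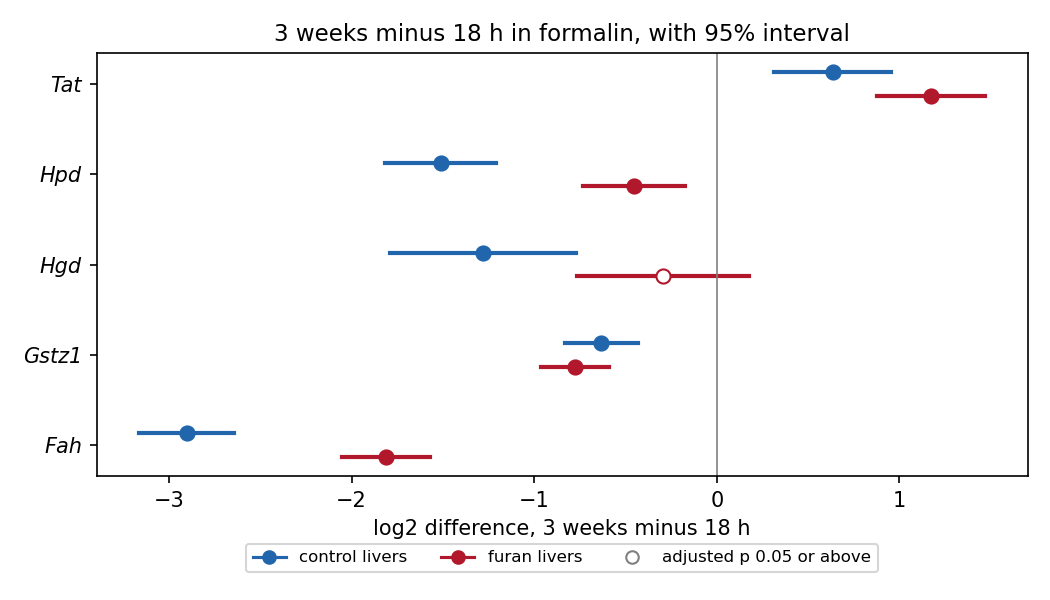
Log2 difference of 3 weeks minus 18 h in formalin (horizontal axis) with its 95% confidence interval for each gene, in blue for control and in red for furan livers; filled points passed an adjusted p of 0.05. Tat lies above 0 and Fah farthest below 0 in both, at -2.90 in control and -1.81 in furan livers.

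Put in order, Tat was highest in 3-week controls, with a mean log2 ratio of 0.77 ± 0.08 (SD, n = 3), and then 0.37 ± 0.25 (SD, n = 4) in 3-week furan livers, 0.14 ± 0.26 in 18 h controls and -0.80 ± 0.15 in 18 h furan livers. The middle groups of Tat overlapped. Hpd was highest in 18 h controls at 1.1 ± 0.16, and the next groups, 3-week controls at -0.41 ± 0.13 and 18 h furan livers at -0.51 ± 0.18, overlapped each other, with 3-week furan livers lowest at -0.97 ± 0.23. Hgd was highest in 18 h controls at 0.36 ± 0.13, and its other groups, at -0.70 ± 0.19 in 18 h furan livers, -0.92 ± 0.14 in 3-week controls and -0.99 ± 0.66 in 3-week furan livers, did not separate. Gstz1 fell into 2 levels, with the 18 h groups at 0.14 ± 0.04 for furan and 0.03 ± 0.10 for control, and the 3-week groups at -0.61 ± 0.06 for control and -0.64 ± 0.06 for furan. The 4 groups of Fah ran in the same order as those of Hgd, from 18 h controls at 0.98 ± 0.17 through 18 h furan livers at -0.45 ± 0.11 and 3-week controls at -1.92 ± 0.25 to 3-week furan livers at -2.26 ± 0.14. The first 3 of these did not overlap each other, and the 3-week groups did.

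Among themselves the members were most alike for Hpd and Hgd. Likeness was the root mean square difference of the log2 ratios over the 15 samples after each gene was centred on its mean, so that 0 is an identical profile, and it is a description over samples that share arrays and reference. Hpd and Hgd differed by 0.44, and 211 of 13038 other named genes were closer to Hpd than Hgd was. Hgd and Gstz1 differed by 0.53, Hpd and Gstz1 by 0.69 and Hpd and Fah by 0.70. Tat and Fah, the first and last enzymes, were the least alike at 1.65, and 13002 of the 13038 genes were closer to Tat than Fah was.

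The 3 genes nearest to each member were taken by the same measure. Nearest to Tat were Adh7 at 0.17, Nrn1 at 0.17 and Pck1, the gluconeogenic enzyme that makes phosphoenolpyruvate, at 0.18, where the median gene was at 0.67. Nearest to Hpd were Tmem50a at 0.24, the complement protease gene C1rb at 0.24 and the carboxypeptidase gene Cpn1 at 0.25, with a median of 0.88. Nearest to Hgd were Pkdrej at 0.17, the lysosomal trafficking gene Lyst at 0.27 and B3gat3 at 0.29, with a median of 0.72. Nearest to Gstz1 were F2, which encodes prothrombin, at 0.08, Zfp354a at 0.08 and the mitochondrial import gene Timm23 at 0.10, with a median of 0.47. Nearest to Fah were Pklr, the liver pyruvate kinase, at 0.20, Chdh, which oxidizes choline, at 0.20 and Hgfac at 0.21, with a median of 1.35. Each of the 5 members thus had other genes closer to it than any fellow member.

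Other genes of the pathway were read from fixed lists at 18 h, where the median log2 difference of all genes was -0.04. Of the 99 genes on these lists 57 passed the threshold (57.6%), 32 lower and 25 higher, beside 47.2% of all tested probes. Among probes above background on every array, tested alone, 9125 of 14375 passed, a larger share than on these lists. The enzymes that make and recycle tetrahydrobiopterin, the cofactor of aromatic amino acid hydroxylases, mostly did not pass the test. Of 7 genes 0 were higher and 1 was lower, with a median of -0.00104: Pcbd2 fell by 0.39 on the log2 scale (adjusted p = 0.00278), which was 0.02 with median centring. Gch1, the entry enzyme, was at -0.14, Pts at -0.05, Spr at 0.11, Gchfr at -0.00104, Pcbd1 at 0.12 and Qdpr at 0.01, none of them called, although a dimmer probe of Qdpr was at -1.41. Enzymes that share a substrate or product with the pathway had 4 higher and 3 lower of 15 tested, with a median of 0.04. Among them Acat1, which splits acetoacetyl-CoA, rose by 0.69 (adjusted p = 0.00027) and Fh1, the fumarase that hydrates fumarate, rose by 0.55 (adjusted p = 0.000389). Got2, a mitochondrial aspartate aminotransferase, fell by 0.46 (adjusted p = 0.0019) but was at 0.07 with median centring, and Tyr, the pigment cell tyrosinase, fell by 0.48 (adjusted p = 0.00398).

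The list of aromatic amino acid carriers and their partners, which also held mitochondrial aspartate-glutamate carriers, had 2 higher and 3 lower of 7 tested, with a median of -0.14. The mitochondrial aspartate-glutamate carrier Slc25a13 fell by 0.51 (adjusted p = 0.00165) and the transporter heavy chain Slc3a2 fell by 0.33 (adjusted p = 0.00928), and with median centring they were at 0.03 and 0.20. Slc43a2 rose by 0.35 (adjusted p = 0.00818) and Slc7a8 by 0.26 (adjusted p = 0.0281). Tat is a glucocorticoid and fasting target, and of 13 genes on that list 5 were higher and 4 lower, with a median of 0.10. Pck1 fell by 1.20 (adjusted p = 4.35e-05) and Sds, serine dehydratase, fell by 0.94 (adjusted p = 0.000358), beside -0.94 for Tat. The largest change on the list was a rise, of 1.38 for Igfbp1 (adjusted p = 0.00611), a binding protein of insulin-like growth factors that is named here after its values were seen. Also among the genes of the list with the smallest p, Tsc22d3 rose by 0.61 (adjusted p = 0.000526) and Sgk1 rose by 0.53 (adjusted p = 0.00113). Of the 13 genes 4 did not pass the threshold. Hepatocyte transcription factors had 5 higher and 1 lower of 11, with a median of 0.29. Hnf4a rose by 0.87 (adjusted p = 3.67e-05), Cebpb by 0.91 (adjusted p = 8.06e-05) and Foxa1 by 0.61 (adjusted p = 0.000288), and Foxa3 fell by 0.48 (adjusted p = 0.00356).

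Enzymes that break down other amino acids had 7 higher and 12 lower of 30, with a median of -0.19 beside -1.06 for the 5 tyrosine enzymes. The urea cycle entry enzyme Cps1 fell by 1.32 (adjusted p = 1.07e-05), Ahcy fell by 1.33 (adjusted p = 2.79e-05), Mat1a, which makes S-adenosylmethionine, fell by 1.04 (adjusted p = 2.88e-05) and Prodh2 fell by 0.92 (adjusted p = 6.97e-05). Periportal genes had 2 higher and 6 lower of 14, with a median of -0.22, and pericentral genes 1 higher and 9 lower of 14, with a median of -0.38. Cyp1a2 fell by 1.28 (adjusted p = 8.54e-05) and Oat, ornithine aminotransferase, fell by 1.14 (adjusted p = 0.000157) among the latter. These splits depended on the scaling: with median centring, where all genes had a median of 0.13, other amino acid enzymes had 16 higher and 9 lower, periportal genes 6 and 4, pericentral genes 4 and 2, and tetrahydrobiopterin enzymes 5 and 0. At 3 weeks 0 of the 99 genes on these lists passed the threshold by limma, and 29 had an unadjusted p under 0.05, 19 lower and 10 higher.

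**Figure D5:**
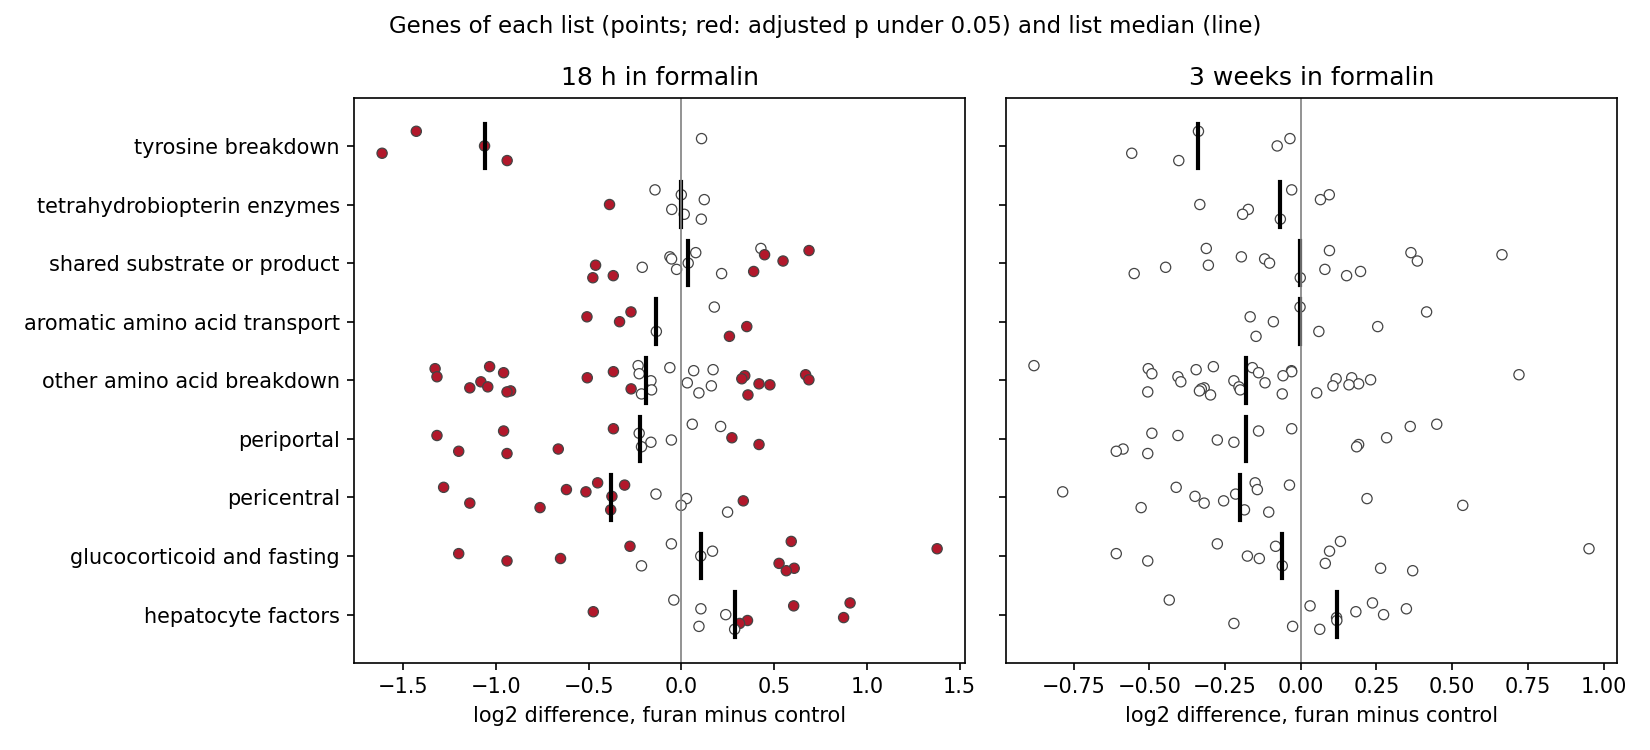
Log2 difference of furan minus control (horizontal axis) of each tested gene in 9 lists at 18 h (left) and 3 weeks (right) in formalin; red points passed an adjusted p of 0.05 and the black line is the list median. The median of the tyrosine enzymes is -1.06 at 18 h and -0.34 at 3 weeks, and no point of any list is red at 3 weeks.

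Of 35 markers of liver cell types 20 passed the threshold at 18 h (57.1%), 17 lower and 3 higher, beside 47.2% of all tested probes, and their part in the results above was not tested. Among probes above background on every array, tested alone, 9125 of 14375 passed, a larger share than of the markers. Hepatocyte markers had 4 lower and 0 higher of 7, with a median of -0.42, and their mean log2 ratio ran from 0.38 to 0.49 in controls and from -0.04 to 0.07 in furan livers. Ttr fell by 0.90 (adjusted p = 2.84e-05) and Alb fell by 0.72 (adjusted p = 0.000214). With median centring this list had 3 higher and 1 lower. Sinusoidal endothelial markers had 1 higher and 4 lower of 6, from 0.16 to 0.30 in controls and from -0.14 to -0.07 in furan livers, and Fcgr2b fell by 1.24 (adjusted p = 1.38e-05). Erythroid markers had 0 higher and 4 lower of 6, from -0.07 to 0.18 in controls and from -0.61 to -0.33 in furan livers, and Hbb-bs fell by 1.06 (adjusted p = 0.000142). Stellate markers had 1 higher and 3 lower of 6, Kupffer cell markers 0 and 1 of 5, cholangiocyte markers 1 and 1 of 3 and lymphocyte markers 0 and 0 of 2. Their mean log2 ratios overlapped between the groups, and Timd4, Krt19, Epcam, Sox9, Cd3g, Cd2, Cd79a and Ms4a1 did not reach the level needed for testing. At 3 weeks 0 of 35 markers passed the threshold by limma and 6 had an unadjusted p under 0.05, and the hepatocyte markers ran from -1.06 to -0.59 in controls and from -1.26 to -0.84 in furan livers.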

How the data were processed

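Per the labels, each Agilent SurePrint G3 array compared Cy5-labelled liver with a Cy3-labelled pool, without dye swap, in a randomized block design with 4 biological replicates a dose group. Spots were quantified with Agilent Feature Extraction 11.0.1.1, per the file headers. Scanner files as deposited hold spot signals as intensity before normalization, processed intensity and, per the file headers, Agilent's log10 ratio. The deposited value table holds the authors' log2 ratios after a normalization that is not given in the sources used here. Set against the loess-normalized ratios used here, it ran in the same direction (r 0.856 to 0.978) but with slopes of 0.644 to 0.799. The lowest r were those of arrays 2.1 and 2.2 of the 3-week controls, at 0.863 and 0.856, and the next lowest was 0.960. The column medians of the value table ran from -0.00919 to 0.0247. How it was scaled and centred stays unknown.

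In R 4.3.3 with limma 3.58.1, median signals were background-corrected by normexp (offset 50) and normalized by loess within arrays, outlier spots were left out and spots of a probe averaged. Of 55681 probes, 29690 were kept, being well above background in the liver channel on at least 3 arrays of 1 group or more, and 27235 of the 55681 were matched by accession to a RefSeq symbol. Where a listed gene had several kept probes, the brightest stood for it. Models were fitted by lmFit and eBayes with the slide as a term, two-sided, adjusted over the 29690 probes, threshold 0.05, using the livers of one fixation time for furan and all 15 samples otherwise. The method was tested on simulated data. The simulation began from log ratios, so background correction and normalization were not part of it. The precision of the values is limited by the number of arrays.

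Named were all 5 members, all tetrahydrobiopterin genes, up to 4 genes of each other list with the smallest p at 18 h, and the 3 genes nearest in profile to each member. The members and lists were chosen with earlier results of these data known. The first step of phenylalanine breakdown is not analysed here. No genome of build mm9, which the files name, was used, so probe positions are not given. The alternatives were other background, scaling, filter and variance settings, the signal share as a covariate, single slides, arrays 2.1 and 2.2 taken apart or singly, a replicate block, and each sample left out.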

Additional observations from a re-analysis of the deposited data

Results flagged for a closer look

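Among furan livers kept in formalin for 3 weeks, the log2 ratio of Fah in liver 43, -2.05, stood apart from the other 3, which lay between -2.36 and -2.31. Its gap to the nearest of them was 0.832 of the range of the group, just above the 95% limit of Dixon's outlier criterion for 4 samples. Of the 15 groups of 4 samples checked over the 5 genes this was the single one past the limit, and chance alone gives about 1 in 20.

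The furan effects on Hpd and Fah differed between the fixation times by the interaction test. For Hpd the effect at 3 weeks minus that at 18 h was 1.06 on the log2 scale (adjusted p = 0.00333), and for Fah it was 1.09 (adjusted p = 0.00131). Both differences passed the threshold in each of the 15 fits that left out 1 sample, from 0.96 to 1.13 for Hpd and from 0.96 to 1.24 for Fah.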

How the results depend on the processing

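The calls of Hpd, Hgd, Tat and Fah at 18 h held in each of the 8 fits that left out 1 liver. Those fits called 12086 to 13045 probes in all. Of the alternatives run, only the share of probes above background as a covariate ended any of these member calls. It left 1 member (Fah) and 596 probes called. That share did not overlap between furan and control livers at 18 h, so it and furan cannot be told apart. At 18 h the count of 14025 probes was 8151 on slide 1 and 7049 on slide 2. Among probes above background on every array it was 9125, 3646 higher and 5479 lower. That filter left 14375 probes to test in each comparison in place of 29690, and 55681 were tested without the filter on dim probes. At 3 weeks the count of 35 was 449 without background correction, 0 with Agilent's log ratios, 2317 with median centring, 312 in the authors' value table, 13 with quantile normalization, 130 among probes above background on every array, 72 without the slide term, 20 with trend and robust variances, 0 with the signal share as a covariate, 0 on slide 1, 265 on slide 2, 322 with arrays 2.1 and 2.2 separate, 1299 in the fit of all 15 samples, and, as alternatives chosen after seeing the data, 22 and 17 with number 2 taken from array 2.2 or 2.1 alone. Leaving out 1 liver gave 0 to 770 probes: 0 without control 6, 3 without control 2, 770 without control 4, and 12, 9, 7 and 5 without furan livers 41, 42, 43 and 44. The count of members called at 3 weeks was 0, and 1 (Hpd) without background correction and in the fit of all 15 samples. For the difference of the furan effects the count of 3787 was 2286 with Agilent's log ratios and 2222 without the filter on dim probes, and 4 members passed without background correction, where Tat (0.58) and Hgd (1.08) joined Hpd and Fah. For time in formalin, 17621 probes in controls became 10875 among probes above background on every array and 5662 with the signal share as a covariate, and 19935 in furan livers became 11455 and 4475; with that covariate 2 and 1 members were called. Among the 5 members, signs turned only at 3 weeks and only for values that had not passed: Gstz1 was at 0.079 with Agilent's log ratios, 0.40 with median centring, 0.0065 in the authors' value table, 0.045 on slide 2 and -0.065 to 0.0064 over the fits without 1 liver (above 0 without control 4), Hgd at 0.33 with median centring, 0.24 with the signal share, 0.15 on slide 2 and -0.28 to 0.18 over the fits without 1 liver (above 0 without furan livers 42 and 43), and Tat at 0.015 with median centring. Of the other listed genes called at 18 h, 15 that were lower had a value above 0 with median centring, none of them then called, Got2, Pcbd2, Slc25a13 and Slc3a2 among them. The cause of these changes was not tested. Of all calls, the share higher moved from 43.2% to 78.6% with median centring and 55.0% in the authors' value table at 18 h, from 74.3% to 89.9%, 53.8% and, with quantile normalization, 92.3% at 3 weeks, from 61.3% to 27.5% and 43.97% for the difference of the effects, and with median centring from 48.1% to 24.4% and from 52.3% to 23.3% for time in formalin. Median centring moved the median of all probes from 0.00 to -0.24 and from 0.03 to -0.29 in these last comparisons. Furan and control livers share no sample numbers, so no block was fitted between them. Across the fixation times, same-numbered samples deviated together only weakly, with correlations of deviations from 0.0189 to 0.182. Samples of different number had correlations from -0.163 to 0.0959. With a replicate block 2, 5 and 4 members were called, as without it, and 3965, 17760 and 20059 probes. Arrays 2.1 and 2.2 differed for the members by 0.04 (Hgd) to 0.24 (Tat) in size.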
